A study of Mus musculus with 6 samples.

Results

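The transcripts described here encode the TGF-beta ligands, their receptors, 2 of the latent binding proteins that store the ligands in the matrix, and the 2 receptor-activated Smads of the pathway. The members were picked by gene symbol: *Tgfb1*, *Tgfb2*, *Tgfb3*, *Ltbp1*, *Ltbp3*, *Tgfbr1*, *Tgfbr2*, *Tgfbr3*, *Smad2* and *Smad3*. All 10 had a row among the 14647 genes of the deposited table, and 9 of them were among the 13547 genes that were tested. RNA came from the pharyngeal region of E9.5 mouse embryos, dissected from the border of the first pharyngeal arch with the next arch back to the base of the heart. The groups were 3 *Pax9*-/- embryos, in which both alleles of *Pax9* are null in every cell, and 3 wild-type embryos. The samples were untreated, and no Cre, transgene or drug was named for either genotype. The whole region was sequenced, so that endoderm, ectoderm, neural crest, mesoderm, endothelium and blood contribute to each value, and fewer cells of a type and less RNA per cell cannot be told apart.

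TGF-beta proteins are secreted as dimers that stay bound to their own propeptide, and latent TGF-beta binding proteins tether this inactive complex to fibrillin and other matrix fibres. Released ligand is bound by the type II receptor, which phosphorylates the type I receptor, and that receptor in turn phosphorylates Smad2 and Smad3, which enter the nucleus with Smad4. In the pharyngeal arches the pathway acts on neural crest-derived cells that surround the arch arteries and become their smooth muscle and matrix.

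The values are log2 RPKM, that is, reads divided by gene length in kilobases and by library size, on a log2 scale. Effective library sizes, worked out from the values, ran from 11509903 to 11728252 in *Pax9*-null and from 12352675 to 12692323 in wild-type libraries. The paper describes sub-sampling of every sample to the size of the smallest. *Pax9* itself, which marks the pharyngeal endoderm, served as the check of the labels: its log2 RPKM was −0.43, −0.63 and −0.59 in *Pax9*-null replicates 1 to 3 and 0.63, 0.71 and 0.96 in wild-type replicates 1 to 3 (log2 difference −1.32, adjusted *P*=0.0155 by limma). Pharyngeal endoderm markers, summed over *Foxa2*, *Epcam*, *Cdh1*, *Krt8* and *Krt18*, gave between 135 and 223 RPKM in the 6 libraries. The 5 neural crest markers gave between 61.9 and 65.1 RPKM in *Pax9*-null and between 53.2 and 54.6 RPKM in wild-type libraries. Most of that sum was *Twist1*, with means of 56.2 RPKM in *Pax9*-null and 44.2 RPKM in wild-type libraries. The 5 did not move together, with log2 differences of 0.35 for *Twist1*, 0.04 for *Foxd3*, −0.18 for *Tfap2a*, −0.48 for *Tfap2b* and −0.59 for *Sox10*. Wild-type replicate 3 stood apart in cardiomyocyte markers, with a sum of 45.8 RPKM against 441 to 720 RPKM in the other libraries. Wild-type replicate 1 had the highest sum of endothelial markers, at 82.6 RPKM against 39.8 to 53.9 RPKM elsewhere, and the lowest sum of neural tube markers, at 34.4 RPKM against 58.4 to 63.4 RPKM. Differences between genotypes also ran with the gene itself. The log2 difference of a gene was correlated with its length (Spearman's rho −0.40) and with its GC content (−0.44) over 13524 genes, which do not count as independent replicates. Each member is therefore also given after a correction that took out the trend of every library with both, called the length and GC correction below.

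Of the 9 tested members, 2 were called lower in *Pax9*-null embryos, *Smad3* and *Tgfb3*, and 0 were called higher, at an adjusted *P* of at most 0.1 in the limma fit over all tested genes. Over all genes, 12.0% were called lower and 14.7% higher, 26.7% in all, so that a count of 2 in 9 is not read as particular to these genes. The other 7 tested members did not pass. The log2 difference was below 0 in 7 of the 9 and above 0 in 2, with a median of −0.46, whereas the median over all tested genes was 0.00. After the length and GC correction, 0 members were called, against 2.94% of all genes, and their median was −0.18. *Ltbp3*, the tenth member, was too low for the main test and was called lower only when the filter on low values was dropped.

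**Figure D1:**
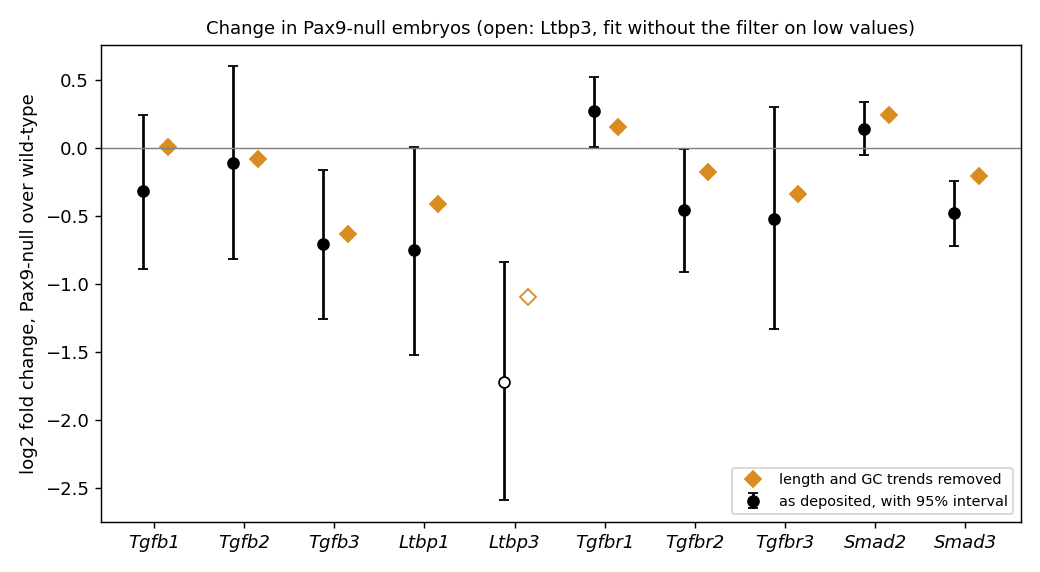
Log2 difference in RPKM (*Pax9*-null minus wild-type) of each member by limma, as deposited (circles, with the 95% confidence interval) and after the length and GC correction (diamonds, drawn without an interval). *Smad3* lay at −0.48 and *Tgfb3* at −0.71 as deposited, *Ltbp3* at −1.72 came from the fit without a filter, and the correction moved every member towards 0 except *Smad2*.

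The promoters are shown for 3 members whose libraries did not overlap between genotypes, *Smad3* and *Ltbp3* (lower) and *Tgfbr1* (higher). Such separation is not particular to the members: it was seen in 20.1% of all tested genes with *Pax9*-null lower and in 21.8% with it higher. They span 250 bases before to 50 bases after the annotated start, 5′ to 3′ on the strand of the gene, in RefSeq sequence of build GRCm38.p6. Of the 10 members, 7 matched this promoter set. Capitals mark matches, on either strand, to 5 motifs: the Sp1 GC box GGGCGG, the palindromic Smad element GTCTAGAC, the AP-1 site TGACTCA, the cAMP response element TGACGTCA and the TATA box TATAAA. No capitals of different motifs overlapped in these windows.
Smad3 (chr9:63757945-63758244, minus strand): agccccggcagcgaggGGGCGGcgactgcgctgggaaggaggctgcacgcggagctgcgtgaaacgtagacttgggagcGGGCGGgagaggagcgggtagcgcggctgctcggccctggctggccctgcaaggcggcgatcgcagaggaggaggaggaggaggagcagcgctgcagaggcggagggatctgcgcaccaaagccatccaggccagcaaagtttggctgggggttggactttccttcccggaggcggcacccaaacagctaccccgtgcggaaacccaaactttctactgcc
Ltbp3 (chr19:5740650-5740949, plus strand): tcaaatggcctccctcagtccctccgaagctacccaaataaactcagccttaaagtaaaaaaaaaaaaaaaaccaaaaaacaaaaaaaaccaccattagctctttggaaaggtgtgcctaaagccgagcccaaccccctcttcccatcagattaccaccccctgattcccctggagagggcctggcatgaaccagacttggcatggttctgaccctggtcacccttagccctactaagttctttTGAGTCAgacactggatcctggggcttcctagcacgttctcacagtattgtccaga
Tgfbr1 (chr4:47352972-47353271, plus strand): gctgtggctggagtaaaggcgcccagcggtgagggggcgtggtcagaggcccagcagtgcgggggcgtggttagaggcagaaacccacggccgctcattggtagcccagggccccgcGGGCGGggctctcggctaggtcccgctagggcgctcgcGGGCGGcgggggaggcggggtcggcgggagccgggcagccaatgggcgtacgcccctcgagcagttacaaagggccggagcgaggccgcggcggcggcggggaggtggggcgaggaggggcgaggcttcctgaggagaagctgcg

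The *Smad3* and *Tgfbr1* windows were both rich in GC. *Smad3* had 67.7% GC with 25 CpG dinucleotides, and *Tgfbr1* had 74.7% GC with 34. Each held 2 GC boxes, a motif found in 35.7% of the 32851 promoters of the same length. The *Ltbp3* window was poorer, with 48% GC, 3 CpG dinucleotides and an adenine-rich stretch, against a median of 52.7% GC over all promoters. It held 1 AP-1 site, in the form TGAGTCA, which occurs in 5.2% of all promoters. The palindromic Smad element, present in 0.213% of promoters, was found in none of the 7 matched members. Among the others, *Tgfb1* held 6 GC boxes, *Tgfb2* a single TATA box (13.6% of promoters), *Ltbp1* a single cAMP response element (1.79%) and *Tgfbr2* none of the 5 motifs. These matches describe the letters of the window only.

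The members spanned a wide range of levels. Per length, the mean RPKM over the 6 libraries was highest for *Tgfbr1* (92.8), followed by *Smad2* (34.6), *Smad3* (26.1), *Tgfb2* (7.27), *Tgfbr3* (4.95), *Ltbp1* (3.91), *Tgfb3* (2.62), *Tgfbr2* (2.60), *Tgfb1* (0.768) and *Ltbp3* (0.185). Within a library, every neighbouring pair kept this order in all 6 libraries except *Tgfb3* and *Tgfbr2*, which kept it in 4 of 6. Compared across libraries, the ranges of neighbours from *Tgfb2* to *Tgfbr2* overlapped, as did those of *Smad2* and *Smad3*. The level of *Smad2* carries a further limit, because its values correspond to a gene length of 3549 bp while the annotation used here gives 8781 bp of exons. Neither length enters the differences as deposited, but the length and GC correction used the annotated 8781 bp for *Smad2*.

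**Figure D2:**
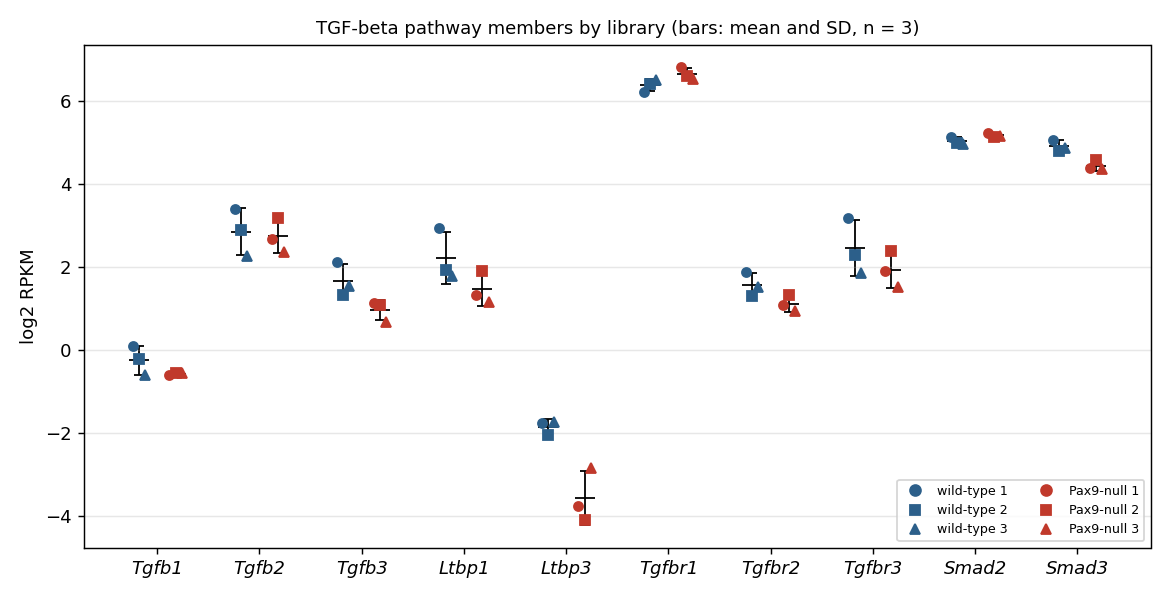
Log2 RPKM of the 10 members in each of the 6 libraries, with blue symbols for wild-type and red symbols for *Pax9*-null embryos 1 symbol shape per replicate number, and bars for the mean and SD of 3 libraries. Symbols of the 2 genotypes separate for *Tgfb3*, *Ltbp3*, *Tgfbr1* and *Smad3* and mix for the others.

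Of the 3 ligands, *Tgfb3* fell in *Pax9*-null embryos while *Tgfb2*, the most abundant, and *Tgfb1* did not pass the test. *Tgfb3* (ENSMUSG00000021253, chr12:86056745-86079041) encodes the ligand best known for its part in closure of the palate. Its log2 RPKM was 1.13, 1.08 and 0.68 in *Pax9*-null replicates 1 to 3 and 2.13, 1.34 and 1.56 in wild-type replicates 1 to 3. The genotypes did not overlap, and wild-type replicate 1 was the highest and *Pax9*-null replicate 3 the lowest. The means were 0.96 ± 0.25 (SD, *n*=3) and 1.67 ± 0.41 (SD, *n*=3), resting on 63 to 85 and 105 to 187 reads per library. The log2 difference of −0.71 (SE 0.24, 95% confidence interval −1.26 to −0.16, adjusted *P*=0.0819 by limma) left 61.0% of the wild-type level. The call was kept in 1 of the 6 fits that left out a library, that without wild-type replicate 2 (adjusted *P*=0.0589 by limma), and in the others the adjusted *P* lay between 0.113 and 0.212. After the length and GC correction the difference was −0.63 and the adjusted *P* was 0.192 by limma. Of the exonic bases of *Tgfb3*, 12.4% are shared with genes annotated on the opposite strand.

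*Tgfb2* (ENSMUSG00000039239, chr1:186622792-186705989) encodes the ligand known for its requirement in the cardiac outflow region and aortic arch. It was measured at 2.68, 3.19 and 2.38 log2 RPKM in *Pax9*-null and at 3.40, 2.91 and 2.27 in wild-type replicates 1 to 3. The groups overlapped almost fully, the lowest value being that of wild-type replicate 3 and the highest that of wild-type replicate 1. The log2 difference was −0.11 (SE 0.31, 95% confidence interval −0.82 to 0.60, adjusted *P*=0.821 by limma), which leaves room for a change of either sign. It was −0.08 (adjusted *P*=0.888 by limma) after the length and GC correction. *Tgfb1* (ENSMUSG00000002603, chr7:25687002-25705077), the founding ligand of the family, was near the lower limit of the tested genes, with 38 to 68 reads per library. Its log2 RPKM was −0.60, −0.56 and −0.55 in *Pax9*-null and 0.10, −0.22 and −0.61 in wild-type replicates 1 to 3. The *Pax9*-null libraries were nearly equal while wild-type ones were spread, and wild-type replicate 3 lay below all *Pax9*-null values. The log2 difference was −0.32 (SE 0.24, adjusted *P*=0.367 by limma), and it was 0.01 after the length and GC correction.

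Within a library, the makeup of the ligand pool does not depend on library scaling. *Tgfb2* made up 69.3, 76.5 and 69.4% of the summed ligand RPKM in *Pax9*-null replicates 1 to 3 and 66.1, 69.0 and 57.2% in wild-type replicates 1 to 3. Its share was higher in every *Pax9*-null library than in any wild-type library, with group means of 71.7 ± 4.13% and 64.1 ± 6.14% (SD, *n*=3; exact permutation test, two-sided, *P*=0.1, the smallest that 3 against 3 allows; adjusted over 6 such measures 0.2). The margin was narrow, 69.3% against 69.0%. The difference of 7.67 percentage points was 4.23 without wild-type replicate 3 (exact permutation *P*=0.4), 4.77 with a pseudocount of 1 RPKM (0.6) and 6.09 after the length and GC correction (0.3). The share of *Tgfb3* was 20.9 ± 2.94% in *Pax9*-null and 28.5 ± 6.04% in wild-type libraries (SD, *n*=3; exact permutation *P*=0.2, adjusted 0.24). These groups overlapped, since *Pax9*-null replicate 1 at 23.6% exceeded wild-type replicate 2 at 23.2%. *Tgfb1* took 7.33 ± 1.73% and 7.45 ± 0.667% (SD, *n*=3; exact permutation *P*=1).

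**Figure D3:**
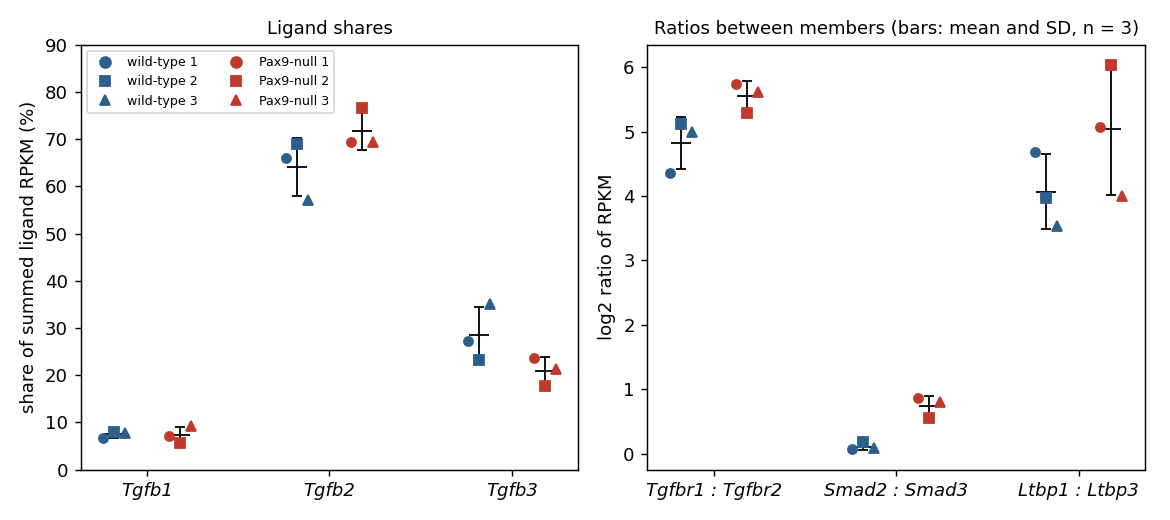
Share of each ligand in the summed ligand RPKM (percent) and log2 ratios between pairs of members, by library, with blue symbols for wild-type and red symbols for *Pax9*-null embryos and bars for the mean and SD of 3 libraries. The log2 ratio of *Smad2* to *Smad3* lay between 0.551 and 0.859 in *Pax9*-null and between 0.0718 and 0.18 in wild-type libraries.

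Among the latent binders, *Ltbp3* was lower in all *Pax9*-null libraries at very low counts, and *Ltbp1* was lower on average but overlapped. *Ltbp3* (ENSMUSG00000024940, chr19:5740904-5758532), a latent TGF-beta binding protein gene known for its role in bone and teeth, had 4, 3 and 8 reads in *Pax9*-null replicates 1 to 3 and 19, 15 and 19 in wild-type replicates 1 to 3. In log2 RPKM these were −3.75, −4.10 and −2.84 against −1.75, −2.05 and −1.74. No *Pax9*-null library reached the lowest wild-type library. Pooled, the reads came to 15 against 53, which after scaling is 30.6% of the wild-type level (exact 95% interval 16 to 55.1%, for counting error only). In the fit of all 14647 genes without a filter, in which 10.9% were called lower, the log2 difference was −1.72 (SE 0.38, adjusted *P*=0.0424 by limma). The call was kept in 5 of the 6 fits that left out a library, and was lost when *Pax9*-null replicate 1 was left out (adjusted *P*=0.167 by limma). With a transcript GC content of 60.3%, the highest among the members, *Ltbp3* moved to −1.10 (adjusted *P*=0.19 by limma) under the length and GC correction. That correction used its annotated length of 9069 bp, whereas the length found by search for its values was 5190 bp. The size of the difference depends on the pseudocount at this level, being −1.01 with 0.1 RPKM and −0.23 with 1 RPKM added.

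*Ltbp1* (ENSMUSG00000001870, chr17:75005568-75392512), which encodes a matrix protein that anchors the latent complex to fibrillin fibres, stood at 1.33, 1.92 and 1.15 log2 RPKM in *Pax9*-null and at 2.94, 1.93 and 1.80 in wild-type replicates 1 to 3. *Pax9*-null replicate 2 lay among the wild-type values, and wild-type replicate 1, with 1019 reads against 273 to 492 elsewhere, stood above the rest. The log2 difference was −0.75 (SE 0.33, 95% confidence interval −1.52 to 0.01, adjusted *P*=0.146 by limma). It was −0.41 (adjusted *P*=0.365 by limma) after the length and GC correction, and −0.40 without wild-type replicate 1. The log2 ratio of *Ltbp1* to *Ltbp3* was 5.03 ± 1.02 in *Pax9*-null and 4.07 ± 0.581 in wild-type libraries (SD, *n*=3; exact permutation *P*=0.2, adjusted 0.24), and the groups overlapped.

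The receptors did not pass the test, and their values lay on both sides. *Tgfbr1* (ENSMUSG00000007613, chr4:47353222-47414931) encodes the type I receptor kinase that phosphorylates Smad2 and Smad3. Its RPKM was 113, 97.5 and 93.8 in *Pax9*-null and 75.2, 85.6 and 92.1 in wild-type replicates 1 to 3. Every *Pax9*-null library lay above every wild-type library, by a narrow margin between *Pax9*-null replicate 3 and wild-type replicate 3. Its log2 difference was 0.27 (SE 0.11, 95% confidence interval 0.01 to 0.52, adjusted *P*=0.134 by limma), and it was 0.07 (adjusted *P*=0.632 by limma) after quantile normalization. *Tgfbr1* had the lowest transcript GC content of the members, 43.5%, and its difference was 0.15 after the length and GC correction. Over all tested genes, the libraries of the genotypes did not overlap for 21.8% with the *Pax9*-null side higher and for 20.1% with it lower, and among the 9 tested members they did not overlap for 1 and 2 genes.

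*Tgfbr2* (ENSMUSG00000032440, chr9:116084293-116175360) encodes the type II receptor, which binds ligand and activates the type I receptor. It was measured at 1.08, 1.32 and 0.94 log2 RPKM in *Pax9*-null and at 1.88, 1.31 and 1.53 in wild-type replicates 1 to 3. The groups met only at *Pax9*-null replicate 2 and wild-type replicate 2, which were nearly equal. The log2 difference was −0.46 (SE 0.19, 95% confidence interval −0.91 to −0.01, adjusted *P*=0.135 by limma), and it passed the threshold in 1 of the 6 fits that left out a library, that without wild-type replicate 2 (adjusted *P*=0.0932 by limma). The length and GC correction took it to −0.18 (adjusted *P*=0.484 by limma). *Tgfbr3* (ENSMUSG00000029287, chr5:107106570-107289629) encodes betaglycan, the co-receptor that presents TGF-beta2 to the type II receptor. Its log2 RPKM was 1.90, 2.40 and 1.53 in *Pax9*-null and 3.20, 2.30 and 1.87 in wild-type replicates 1 to 3. The groups overlapped, and the wide spread within each left a log2 difference of −0.52 with an SE of 0.35 (adjusted *P*=0.325 by limma). It was −0.34 after the length and GC correction. Leaving out wild-type replicate 1 gave −0.14, leaving out wild-type replicate 3 gave −0.81 and leaving out *Pax9*-null replicate 3 gave −0.31.

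The balance of the 2 signalling receptors was compared within each library. The log2 ratio of *Tgfbr1* to *Tgfbr2* was 5.74, 5.29 and 5.61 in *Pax9*-null and 4.36, 5.11 and 4.99 in wild-type replicates 1 to 3. It was higher in each *Pax9*-null library than in any wild-type library, by 0.725 on average (exact permutation test, two-sided, *P*=0.1, adjusted 0.2). After the length and GC correction the difference was 0.325 (exact permutation *P*=0.2), and the full separation was lost. A higher ratio here means more type I relative to type II receptor transcript.

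Of the Smad transducers, *Smad3* fell in *Pax9*-null embryos and *Smad2* did not pass the test. *Smad3* (ENSMUSG00000032402, chr9:63646767-63757994), whose product binds DNA directly, had 21.0, 24.0 and 20.5 RPKM in *Pax9*-null and 33.8, 28.1 and 29.5 RPKM in wild-type replicates 1 to 3, from 1330 to 2376 reads per library. All *Pax9*-null libraries lay below all wild-type libraries. The log2 means were 4.44 ± 0.12 (SD, *n*=3) and 4.93 ± 0.14 (SD, *n*=3), and the log2 difference of −0.48 (SE 0.10, 95% confidence interval −0.72 to −0.24, adjusted *P*=0.0407 by limma) left 71.6% of the wild-type level. The call was lost without *Pax9*-null replicate 1 (adjusted *P*=0.164 by limma) or *Pax9*-null replicate 3 (0.128) and was kept in the other 4 fits that left out a library. The length and GC correction took the difference to −0.21 and the adjusted *P* to 0.178 by limma.

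*Smad2* (ENSMUSG00000024563, chr18:76241580-76310963) encodes the partner transducer, whose main form does not bind DNA by itself. It was measured at 5.25, 5.14 and 5.16 log2 RPKM in *Pax9*-null and at 5.15, 4.99 and 4.97 in wild-type replicates 1 to 3. The groups overlapped by the smallest of margins, *Pax9*-null replicate 2 lying next to wild-type replicate 1. The log2 difference was 0.14 (SE 0.08, 95% confidence interval −0.05 to 0.34, adjusted *P*=0.26 by limma), and it was 0.24 (adjusted *P*=0.142 by limma) after the length and GC correction. The log2 ratio of *Smad2* to *Smad3* was 0.859, 0.551 and 0.803 in *Pax9*-null and 0.0718, 0.18 and 0.0866 in wild-type replicates 1 to 3. The ratio was higher in every *Pax9*-null library and the wild-type libraries were tightly grouped, with a difference of 0.625 between the means (exact permutation test, two-sided, *P*=0.1, adjusted 0.2). It stayed on the same side in each fit that left out a library, between 0.565 and 0.718, and was 0.456 after the length and GC correction.

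Single libraries set much of the spread among the members. Wild-type replicate 1 had the highest value for 7 of the 10, *Tgfb1*, *Tgfb2*, *Tgfb3*, *Ltbp1*, *Tgfbr2*, *Tgfbr3* and *Smad3*, and the lowest for *Tgfbr1*. *Pax9*-null replicate 3 had the lowest value for 5 of them, *Tgfb3*, *Ltbp1*, *Tgfbr2*, *Tgfbr3* and *Smad3*. Wild-type replicate 1 was also the library with the highest endothelial markers. Of the 5 endothelial markers, 4 had a log2 difference below 0 and 1, *Cdh5*, was called lower (−0.67, adjusted *P*=0.0735 by limma), against 12.0% of all tested genes. The sum of these markers ran from 39.8 to 53.9 RPKM in *Pax9*-null and from 43.8 to 82.6 RPKM in wild-type libraries, and 0 of the 5 were at 0. Erythroid markers summed to between 2570 and 4740 RPKM in *Pax9*-null and between 2330 and 2420 RPKM in wild-type libraries, with 2 of 5 called higher, against 14.7% of all tested genes. The part of these cells in the members' values was not tested. Without wild-type replicate 3, the library low in cardiomyocyte markers, the log2 difference was −0.50 for *Smad3* (adjusted *P*=0.068 by limma), −0.77 for *Tgfb3* (0.116) and −1.66 for *Ltbp3* in the fit without a filter (0.0765). Without wild-type replicate 1 it was −0.41 (0.0657), −0.49 (0.169) and −1.67 (0.0836) for the same genes.

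**Figure D4:**
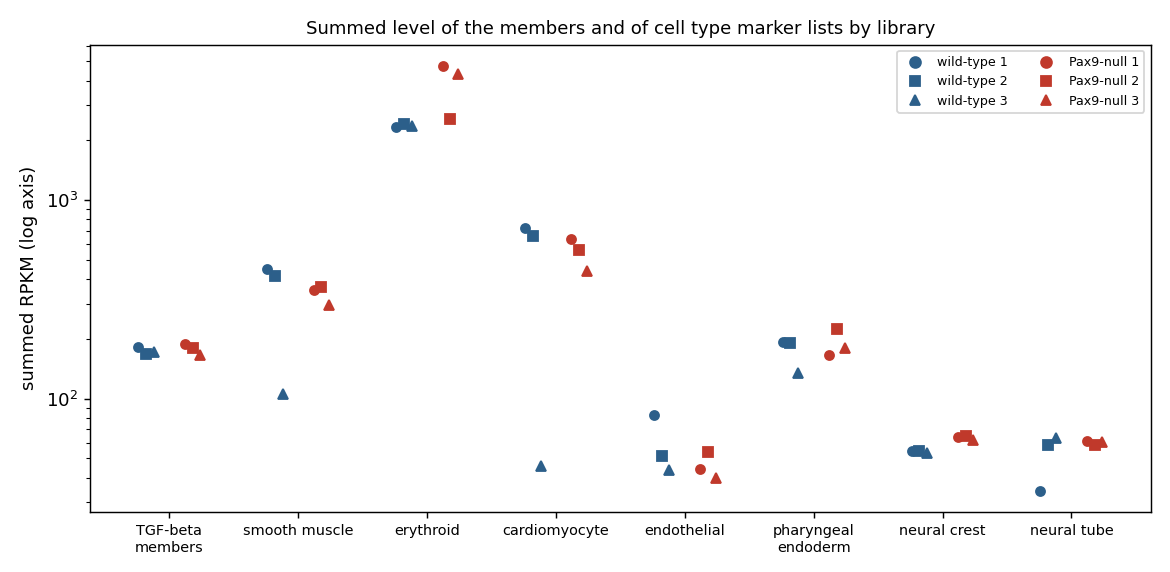
Summed RPKM (log axis) of the 10 members and of 7 cell type marker lists in each library, with blue symbols for wild-type and red symbols for *Pax9*-null embryos. The sum of the members was between 165 and 189 RPKM in all 6 libraries. It rested mostly on *Tgfbr1*, *Smad2* and *Smad3* (means 92.8, 34.6 and 26.1 RPKM) and says little about the other members. Cardiomyocyte markers dropped to 45.8 RPKM in wild-type replicate 3, and endothelial markers reached 82.6 RPKM in wild-type replicate 1.

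Other genes of the pathway were read from 4 lists of 43 genes, of which 42 were in the table and 40 were tested. Of the 40, 12 were called lower and 1 higher, and 27 did not pass, whereas 12.0% of all tested genes were called lower and 14.7% higher. Their median log2 difference was −0.27. After the length and GC correction 2 were called, *Tgfbi* (−0.85, adjusted *P*=0.0549 by limma) and *Thbs1* (−0.42, adjusted *P*=0.0998 by limma), and the median was −0.12. Of all tested genes, 2.94% were called after the correction. The 4 lists were chosen with earlier results of these data known, and no test over a list was run. None of the 13 kept its call in all 6 fits that left out a library, and the number of fits with the call ran from 1 for *Fbn1* and *Ski* to 5 for *Tgfbi*. Without *Pax9*-null replicate 1 the count of called genes was 1, and without *Pax9*-null replicate 3 it was 0. Those 2 fits called 301 and 175 of the 13547 tested genes, 40 and 22 of them lower. Few genes of any list could keep a call there, so these losses are not read as particular to the pathway genes.

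The genes that store and activate latent TGF-beta held the most calls, with 6 of 9 tested genes lower, 0 higher and a median log2 difference of −0.63, against 12.0% of all tested genes called lower. After the length and GC correction 1 of the 9 was called, against 2.94% of all tested genes, and the median was −0.27. The list was chosen with earlier results of these data known, so its counts are not read as particular to it. *Bmp1*, a protease that cleaves procollagens and latent binding proteins, stood at 2.01, 2.61 and 2.5 log2 RPKM in *Pax9*-null and 3.57, 3.10 and 3.28 in wild-type replicates 1 to 3 (log2 difference −0.94, adjusted *P*=0.0352 by limma). Its groups did not overlap. *Thbs1*, which encodes the matrix protein thrombospondin 1, an activator of latent TGF-beta, fell by 0.57 on the log2 scale (adjusted *P*=0.0426 by limma). The fibrillin genes *Fbn1* and *Fbn2*, whose products carry the latent complex, had log2 differences of −0.84 and −0.88 (adjusted *P*=0.0948 and 0.0773 by limma), and *Fbn2* was the highest expressed gene of the list at 12.8 RPKM. Neither was called without wild-type replicate 1 (−0.49 and −0.57) or after the correction (−0.41 and −0.43). *Furin*, the propeptide convertase, and *Lrrc32*, a cell surface anchor of latent TGF-beta, were also called lower (−0.75 and −0.63), but not after the correction (−0.21 and −0.27), which also took *Bmp1* to −0.45 (adjusted *P*=0.126 by limma). For *Bmp1* the correction used the annotated length of 8870 bp, whereas its values correspond to 3757 bp. *Ltbp4*, too low for the main test, had a log2 difference of −1.08 (adjusted *P*=0.0547 by limma) in the fit without a filter.

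Among the 7 receptor partners, *Eng* and *Acvrl1*, an endothelial co-receptor and an endothelial type I receptor, were called lower (log2 differences −0.72 and −0.46, adjusted *P*=0.0641 and 0.0767 by limma). Both are known from the endothelium, whose markers were highest in wild-type replicate 1, and the part of the endothelium in these differences was not tested. *Strap*, whose product binds the receptors and holds back signalling, was the highest expressed of this list at 161 RPKM and the single gene called higher (0.38, adjusted *P*=0.0569 by limma). It was not called after quantile normalization (0.11, adjusted *P*=0.342 by limma) or the length and GC correction (0.14, 0.347), which also ended the calls of *Eng* (−0.42) and *Acvrl1* (−0.14). The other 4 did not pass, and of all tested genes 12.0% were called lower and 14.7% higher.

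Of 12 Smad partners and inhibitors, 2 were called lower and 10 did not pass, a count near the 12.0% of all tested genes, with a median log2 difference of −0.05. *Smurf1*, a ubiquitin ligase that targets Smads and receptors, fell by 0.51 and *Ski*, a Smad corepressor, by 0.35 on the log2 scale (adjusted *P*=0.0618 and 0.0823 by limma), and stood at −0.13 and −0.05, not called, after the length and GC correction. *Smad4*, the common partner of Smad2 and Smad3 and the highest expressed of the list at 51.6 RPKM, had a difference of 0.12 (adjusted *P*=0.279 by limma), although its libraries did not overlap. *Smad7*, the inhibitory Smad that the pathway itself induces, had a difference of 0.03 (adjusted *P*=0.893 by limma), and of 0.40 (adjusted *P*=0.15 by limma) after the length and GC correction.

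Of 12 genes commonly listed as TGF-beta targets, 2 were called lower and 10 did not pass, a count near the 12.0% of all tested genes, with a median log2 difference of −0.34. *Tgfbi*, a TGF-beta-induced matrix protein, was measured at 3.60, 3.80 and 3.47 log2 RPKM in *Pax9*-null and at 4.85, 4.30 and 4.61 in wild-type replicates 1 to 3. The groups stood clearly apart, with a log2 difference of −0.96 (SE 0.15, adjusted *P*=0.019 by limma), 51.3% of the wild-type level. The call was kept in 5 of 6 fits that left out a library, and was lost without *Pax9*-null replicate 3 (adjusted *P*=0.11 by limma). *Col3a1*, a fibrillar collagen and the highest expressed of the list at 43.1 RPKM, fell by 0.67 on the log2 scale (adjusted *P*=0.0546 by limma). *Ctgf*, an early target that encodes a matricellular protein, had a difference of 0.06 (adjusted *P*=0.754 by limma), and *Postn* had 0.02 with an SE of 1.05. Others that did not pass lay further below 0. *Col1a1*, *Fn1*, *Col1a2* and *Vcan* had differences of −0.79, −0.76, −0.70 and −0.39 (adjusted *P*=0.451, 0.138, 0.173 and 0.272 by limma). Over the whole list, 8 genes had a difference below 0 and 4 above 0.

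Contractile genes of smooth muscle, which are also transcribed in the early heart, moved with the heart markers in 1 library. Of 8 listed genes 7 were tested, 1 was called lower and 6 did not pass, with a median log2 difference of 0.25. Of all tested genes, 12.0% were called lower. In wild-type replicate 3, the library with a cardiomyocyte sum of 45.8 RPKM, 5 of the 7 (*Acta2*, *Tagln*, *Cnn1*, *Myl9* and *Myocd*) had their lowest value of all 6 libraries. The summed level of the list was 106 RPKM there against 296 to 450 RPKM elsewhere. Without this library, an alternative chosen after seeing the data, all 7 had a log2 difference below 0, with a median of −0.45, and 2 were called. In that fit, 900 of the 13547 tested genes were called lower and 1241 higher. *Smtn*, which encodes smoothelin, fell by 0.95 on the log2 scale (adjusted *P*=0.0388 by limma), and it stood at −0.56, not called, after the length and GC correction. *Acta2*, smooth muscle actin and the highest of the list at 218 RPKM, was measured at 7.95, 8.0 and 7.70 log2 RPKM in *Pax9*-null and at 8.08, 8.12 and 5.59 in wild-type replicates 1 to 3. The difference of *Acta2* was 0.62 (SE 0.61, adjusted *P*=0.496 by limma), and −0.22 without wild-type replicate 3. The part of heart tissue in these values was not tested.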

How the data were processed

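RNA-seq of the E9.5 pharyngeal region covered 3 *Pax9*-null and 3 wild-type libraries, grouped by the genotype in the labels. The labels name sorted cells and Smart-seq2, whereas the study's methods describe whole dissected tissue and TruSeq libraries, which is followed here. The submitters' processing notes name Trimmomatic 0.32, STAR 2.5.1a and featureCounts 1.5.1 with builds GRCm38.p5 and mm10. The authors deposited log2 RPKM values, 1 per gene and library, which carry a prior count of 0.5 and an effective library size, both worked out from the values. Whole reads were recovered at the GENCODE M21 gene length (exons merged) for 82.7% of values (within 0.05 read). For the members, 6 were whole at that length and 4 at a searched length. Read numbers printed here come from that step.

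Differences (*Pax9*-null minus wild-type) were tested with limma 3.58.1 in R 4.3.3, two-sided, with a variance trend, on the 13547 genes whose mean reached 0.5 RPKM. *P* values were adjusted by Benjamini-Hochberg over all of them, and genes at or below 0.1 were called. Single measures were tested by exact permutation over libraries, which cannot go below 0.1 here. The fit was tested on simulated data. Trends with length and GC content were removed per library by loess (span 0.5). The GENCODE M21 length was used for this, also for genes whose values fit a searched length. Coordinates are GRCm38, from GENCODE M21, and promoters are from RefSeq. Alternatives were other pseudocounts, filters, scalings and thresholds, a replicate term, library weights, no variance trend and each library left out. The fits of *Ltbp3* and *Ltbp4* without a filter under these alternatives, and the smooth muscle median without wild-type replicate 3, were chosen after seeing the data.

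Named were all 10 members, *Pax9*, and of each list the called genes and the highest expressed gene. Added after their values were seen were *Smad7*, *Ctgf*, *Postn*, *Col1a1*, *Col1a2*, *Fn1*, *Vcan*, *Cdh5*, *Sox10*, *Twist1*, *Foxd3*, *Tfap2a*, *Tfap2b* and *Ltbp4*. The members and lists were chosen with earlier results of these data known. The other marker lists gave no call among 5 cardiomyocyte, 5 pharyngeal endoderm and 4 tested neural tube genes, and 1 lower (*Sox10*) and 1 higher (*Twist1*) of 5 neural crest genes. The shares over all tested genes were 12.0% lower and 14.7% higher.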

Additional observations from a re-analysis of the deposited data

How the results depend on the processing

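Counts of called genes moved with single libraries, the replicate term, the threshold and the length and GC trends. Over all genes, 3611 were called. The replicate block gave 1377, a threshold of 0.05 gave 1335, the length and GC correction gave 398, and fits without one library gave 175 to 3578. Without *Pax9*-null replicate 1 or 3 the number was 301 or 175, and without wild-type replicate 1 it was 1799. Of the members, 2 were called. The number was 1 with a mean RPKM of at least 5, 1 with the replicate block, 1 at 0.05, 0 after the length and GC correction, and 0 to 3 without one library. Leaving out *Pax9*-null replicate 1 or 3 gave 0, leaving out *Pax9*-null replicate 2 or wild-type replicate 1 or 3 gave 1, and leaving out wild-type replicate 2 gave 3. Of the pathway genes, 13 were called. The replicate block gave 4, the threshold of 0.05 gave 3, the correction gave 2 and fits without one library gave 0 to 15. Leaving out *Pax9*-null replicates 1 and 3 in turn gave 1 and 0, and leaving out wild-type replicates 1 and 3 in turn gave 4 and 6. Of the smooth muscle markers, 1 was called, against 0 with a mean RPKM of at least 5, 0 after the correction and 0 to 2 without one library, and the median of the list turned from 0.25 to −0.45 without wild-type replicate 3. Deviations of same-numbered libraries correlated at −0.02, −0.17 and 0.26, and those of differently numbered ones at −0.35 to 0.36. With 3 libraries per group, such values cannot show whether the replicate numbers pair the samples. Under the block *Smad3* had an adjusted *P* of 0.0854 and *Tgfb3* of 0.106 by limma. Directions turned for *Tgfb1* (0.01 after the correction), *Tgfb2* (0.08 with library weights, −0.41 to 0.16 without one library), the *Tgfb1* share (0.715 percentage points with a pseudocount of 1, 1.23 after the correction, −1.03 to 0.696 without one library) and the log2 ratio of *Ltbp1* to *Ltbp3* (−0.364 with a pseudocount of 1, against 0.962). None of these 4 had passed a test. The other members kept their direction under every alternative run. The lowest and highest adjusted *P* under any alternative were 0.0245 and 0.178 for *Smad3*, 0.0589 and 0.212 for *Tgfb3*, and 0.0402 and 0.19 for *Ltbp3*. The cause of these shifts was not tested. Depth limits *Ltbp3*, with 3 to 19 reads per library, and *Tgfb1*, with 38 to 68.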
